A study of Mus musculus with 24 samples.

Results

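The genes that write, copy and erase DNA methylation were followed across 6 cell populations of a mouse reprogramming study. The 8 genes were taken from the deposited table by their symbols, out of 23283 genes: the maintenance pair Dnmt1 and Uhrf1, the de novo genes Dnmt3a, Dnmt3b and Dnmt3l, and the demethylating enzymes Tet1, Tet2 and Tet3. All 8 had a row and counts. The study asked how cells of different cycling speed differ during reprogramming by the Yamanaka factors, and compared 24 libraries of cytoplasmic RNA, each made from 1000 sorted cells.

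Fast GMP (n = 5) and slow GMP (n = 3) are granulocyte monocyte progenitors, a blood precursor, grown in a serum-free medium with cytokines, among them SCF, IL3 and Flt3L, and sorted by dilution of the division dye CFSE over 24 hours. iPS (n = 4) are established Oct4:GFP-positive induced pluripotent stem cells, grown without doxycycline and labelled as factor independent. Fast MEF (n = 4) and slow MEF (n = 4) are mouse embryonic fibroblasts that had the Yamanaka factors induced for 6 days with 2 µg/ml doxycycline in stem cell medium with LIF, and were sorted by CFSE dilution over 48 hours. Bulk MEF (n = 4) are fibroblasts that were neither induced nor sorted by dye, and are labelled as slow cycling, where iPS are labelled as fast. They were kept in a plain serum medium, so induction and medium cannot be told apart in a comparison with them. The GMP groups are not labelled as induced, and the strain, the transgene and whether replicates came from separate animals or cultures are not given in the labels. The p-values therefore reflect only how these libraries vary, and that variation may be technical.

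DNA methylation is copied at each replication by DNMT1, which UHRF1 guides to the hemimethylated sites behind the fork. DNMT3A and DNMT3B place new methyl groups, and DNMT3L is a partner of both that has no catalytic activity of its own. TET enzymes oxidise methylcytosine, which starts its removal. Pluripotent mouse cells are known for high Dnmt3b, Dnmt3l and Tet1, and the promoter methylation of pluripotency genes is a known barrier to reprogramming of fibroblasts.

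Library totals ran from 2098846 to 18648132 counts, and the GMP libraries held 2098846 to 4411526 of them. The GMP libraries also had more reads on the ribosomal RNA rows Rn45s and Lars2, 19.9% to 48.9% against 3.05% to 11.7% elsewhere, and resembled their own group less. Fast GMP replicate 1 stood apart with 18402 genes detected, where the remaining GMP libraries had 9380 to 14168. The marker sums followed the labels: pluripotent markers reached 3234 to 4512 CPM (counts scaled to library size) in iPS and at most 653 CPM in any other library, GMP markers 5657 to 26422 CPM in GMP, and fibroblast markers 44774 to 85270 CPM in slow MEF and 26163 to 48417 CPM in bulk MEF. Fast MEF differed from that pattern. Their 12 fibroblast markers summed to 2327 to 5286 CPM, and their 10 keratinocyte and epithelial markers to 8956 to 14618 CPM, against 40.3 to 595 CPM in slow MEF, and 21 to 52.2 CPM in bulk MEF. Macrophage markers summed to 5.38 to 31.4 CPM in fast MEF, 2.55 to 152 CPM in slow MEF and 194 to 346 CPM in bulk MEF. Pluripotent markers summed to 310 to 653 CPM in fast MEF, 14 to 28.9 CPM in slow MEF and 1.13 to 24.5 CPM in bulk MEF. Of these, the factor genes Sox2 and Pou5f1 averaged 295 and 59.2 CPM in fast MEF, against 8.42 and 2.22 CPM in slow MEF. Factor level and dye gate therefore cannot be told apart between fast and slow MEF. These marker differences move with every fast MEF comparison below, and their part in it was not tested. In such bulk samples fewer cells of a type and less RNA per cell cannot be told apart.

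The promoters of the members differ in sequence. The windows are from RefSeq on build GRCm38.p6 and run from 250 bases before to 50 bases after an annotated start, and all 8 genes matched, in 15 windows. The E2F-type motifs TTTCCCGC, TTTCGCGC, TTTGCCGC and TTTGGCGC, of the kind bound by the E2F regulators of S phase genes, were searched on both strands and occur in 2.26% of 32851 such windows. Among the members, only 1 window of Uhrf1 and 1 of Dnmt1 held a match. They are shown for their upstream 250 bases because the results on maintenance turn on these 2 genes. Capitals mark the motif, which lies on the plus strand in Uhrf1 and reads as its reverse complement in Dnmt1. It begins 185 and 219 bases before the start of the window shown. That window is the most downstream of 2 in Uhrf1 and of 3 in Dnmt1. Both motifs therefore lie downstream of the other annotated starts of their gene, and which start was used was not tested. The Dnmt1 window held a second match, TTTGGCGC, 34 bases after its start.
Uhrf1 upstream of chr17 start, plus strand, chr17:56304063-56304312: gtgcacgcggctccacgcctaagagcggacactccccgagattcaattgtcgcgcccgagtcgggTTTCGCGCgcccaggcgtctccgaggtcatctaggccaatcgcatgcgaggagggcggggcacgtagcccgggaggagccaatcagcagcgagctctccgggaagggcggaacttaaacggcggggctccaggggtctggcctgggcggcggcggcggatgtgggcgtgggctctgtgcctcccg
Dnmt1 upstream of chr9 start, minus strand, chr9:20952624-20952873: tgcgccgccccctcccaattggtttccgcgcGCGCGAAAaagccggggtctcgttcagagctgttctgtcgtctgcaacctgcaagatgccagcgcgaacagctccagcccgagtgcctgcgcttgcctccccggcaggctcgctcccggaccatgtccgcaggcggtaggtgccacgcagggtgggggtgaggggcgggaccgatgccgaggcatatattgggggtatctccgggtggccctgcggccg
The octamer ATTTGCAT, bound by OCT4 and related factors, was in 1.74% of all windows and in none of the members' windows. A match describes letters only, and a missing match says only that these letters are not in the window.

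CpG sites, the substrate of these enzymes, were counted in the same windows. Tet2 had 57 CpG in 300 bases, more than 99.8% of all windows, and Dnmt3a had 46 and 47 in its upstream windows. Dnmt3l had 6, 4 and 3 in its 3 windows, where the median of all windows was 7, and Tet1 had 17. Dnmt3l and Tet1 are shown because their counts were high in iPS and low in every other group, with each CpG in capitals. The Dnmt3l stretch is from the most upstream of its 3 windows, and which start these cells used was not tested.
Dnmt3l upstream, plus strand, chr10:78042037-78042286: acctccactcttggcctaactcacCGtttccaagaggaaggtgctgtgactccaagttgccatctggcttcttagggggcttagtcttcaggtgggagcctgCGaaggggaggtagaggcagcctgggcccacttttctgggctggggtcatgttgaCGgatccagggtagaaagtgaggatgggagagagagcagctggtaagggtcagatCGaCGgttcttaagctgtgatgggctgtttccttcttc
Tet1 upstream, minus strand, chr10:62887325-62887574: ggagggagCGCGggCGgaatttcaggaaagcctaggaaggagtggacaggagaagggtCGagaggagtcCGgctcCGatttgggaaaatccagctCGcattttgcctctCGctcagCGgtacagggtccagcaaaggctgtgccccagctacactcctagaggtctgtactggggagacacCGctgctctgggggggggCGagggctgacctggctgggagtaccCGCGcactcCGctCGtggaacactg
The shown stretches hold 5 CpG in Dnmt3l and 15 in Tet1. CpG methylation itself was not measured in these libraries.

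Counts were compared with the edgeR quasi-likelihood test, and a gene passed at a Benjamini-Hochberg adjusted p below 0.05 over all genes tested. In iPS against bulk MEF all 8 members passed, 7 higher and 1 lower. The background was 47.4% of 11736 genes, with 24.1% higher and 23.3% lower. In fast MEF against bulk MEF 6 of 7 tested members were higher, against a background of 34.9% of 11335 genes, with 16.5% higher and 18.4% lower. In slow MEF against bulk MEF none of 7 tested members passed, where 10.5% of 11253 genes passed. Of these 7, 2 had an unadjusted p below 0.05, as had 2953 of the 11253 genes, so this count is near the background. DESeq2 called 2 of the 7, among 1976 genes it called, and limma voom none. In fast MEF against slow MEF 3 of 7 tested members were higher, against a background of 31.7% of 11742 genes, with 14.4% higher and 17.3% lower. In iPS against fast MEF 5 members were higher and 1 lower, against a background of 38.4% of 11882 genes, with 18.8% higher and 19.7% lower. These comparisons share libraries and are not independent of each other. Some members met the count filter only through the group where they are high. Against bulk MEF these were Dnmt3b, Dnmt3l and Tet1 through iPS, and Dnmt3b through fast MEF. In iPS against fast MEF it was Dnmt3l through iPS. Their calls are therefore not evidence about the members as a set.

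**Figure D1:**
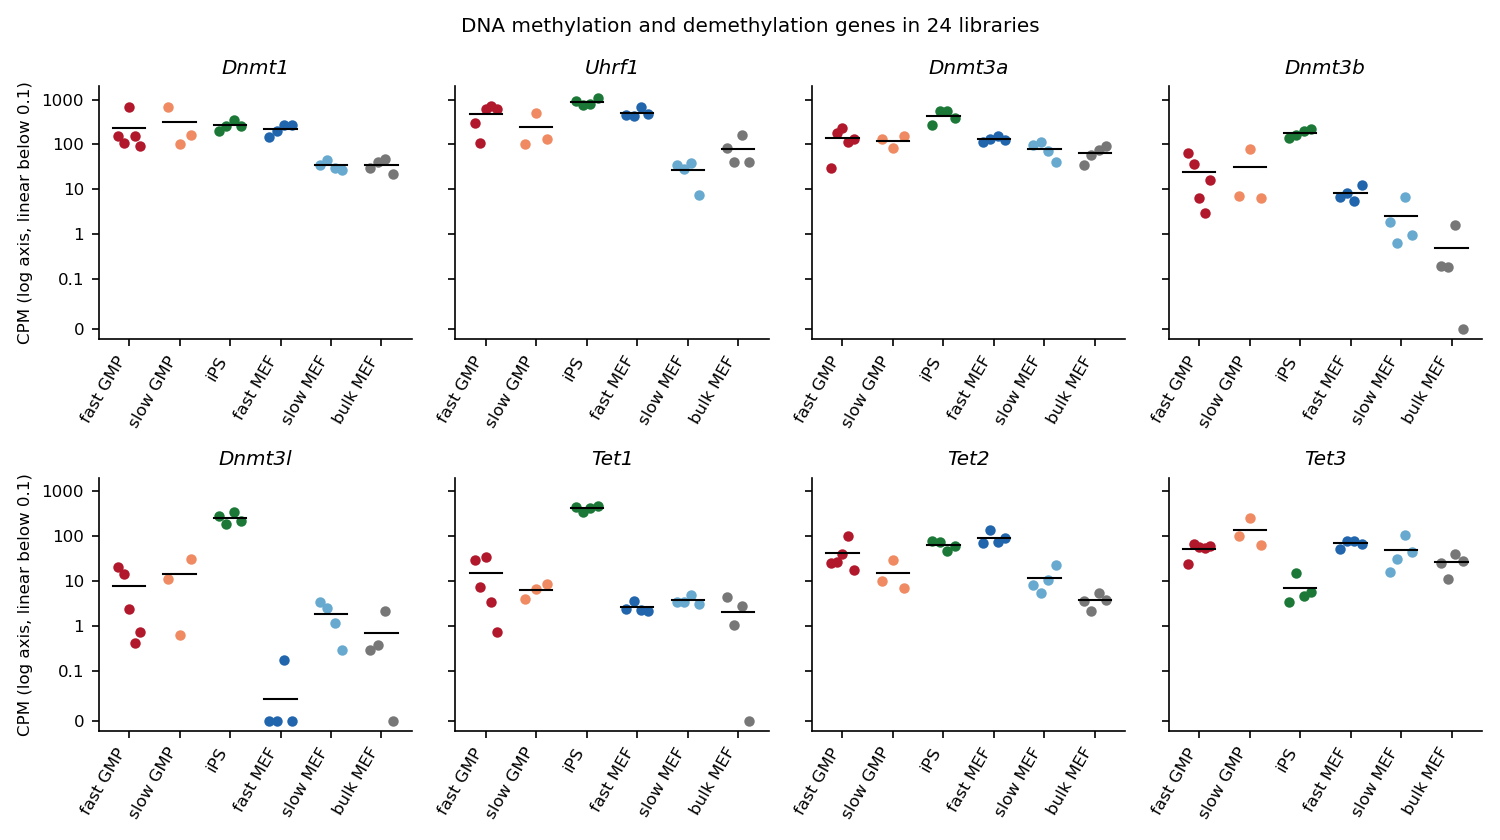
CPM of the 8 genes in each of 24 libraries (points) with the group mean (bar), on a log axis that is linear below 0.1. Dnmt3l and Tet1 in the 4 iPS libraries lie above all other libraries, while Tet2 is highest in fast MEF and Tet3 lowest in iPS.

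Uhrf1, the guide of maintenance methylation, had the largest log2 fold change between the dye gates of induced fibroblasts among the 7 members tested. It had 442, 421, 690 and 465 CPM in fast MEF, against 35.4, 28.6, 38.5 and 7.64 CPM in slow MEF. CPM are scaled by TMM factors over 24 libraries. The groups did not overlap, and the log2 fold change was 4.08 ± 0.49 (SE, edgeR adjusted p = 0.000232). Replicate 3 was the highest fast library and replicate 4 the lowest slow library. Bulk MEF held 84.5, 41.4, 159 and 40.4 CPM, below every fast MEF library (fast over bulk 2.59 ± 0.47, edgeR adjusted p = 0.00188) and above every slow MEF library. Slow MEF against bulk MEF gave -1.52 ± 0.57, which did not pass with edgeR (adjusted p = 0.119) but did with DESeq2 (adjusted p = 0.0467). iPS had 918, 749, 798 and 1065 CPM, above every fast MEF library. iPS over bulk MEF gave 3.42 ± 0.47 (edgeR adjusted p = 0.000299). The log2 fold change of iPS over fast MEF was 0.78 ± 0.22 (edgeR adjusted p = 0.02). It ranged from 0.68 to 1.02 when single libraries were left out, and the call was lost without iPS replicate 4, fast MEF replicate 1 or fast MEF replicate 4. Over the 6 groups the mean ran from 882 ± 141 CPM in iPS through 505 ± 125 in fast MEF, 474 ± 255 in fast GMP, 250 ± 227 in slow GMP and 81.3 ± 55.7 in bulk MEF to 27.6 ± 13.9 in slow MEF (SD). The ranges of fast MEF, fast GMP, slow GMP and bulk MEF overlapped between neighbours in that order.

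Dnmt1, the maintenance methyltransferase, fell into 2 levels. It had 149, 198, 278 and 269 CPM in fast MEF, against 35.6, 44.3, 30.7 and 27.4 CPM in slow MEF. The log2 fold change was 2.58 ± 0.31 (edgeR adjusted p = 0.000222). Bulk MEF held 29.5, 41.4, 46.7 and 21.9 CPM, so slow and bulk MEF overlapped (slow over bulk 0.03 ± 0.37, edgeR adjusted p = 0.972). iPS held 204, 254, 358 and 254 CPM and overlapped fast MEF (iPS over fast MEF 0.24 ± 0.27, edgeR adjusted p = 0.514). Against bulk MEF the log2 fold change was 2.93 ± 0.34 in iPS and 2.64 ± 0.35 in fast MEF (edgeR adjusted p = 9.82e-05 and 0.000282). All fast GMP, slow GMP, iPS and fast MEF libraries, at 94.6 CPM or more, lay above all slow and bulk MEF libraries, at 46.7 CPM or less, and within each of these sets the groups overlapped.

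The pair did not keep 1 ratio. Inside a library, the log2 ratio of Uhrf1 to Dnmt1 counts averaged 1.74 ± 0.47 in iPS, 1.19 ± 0.33 in fast MEF, -0.54 ± 0.95 in slow MEF and 1.04 ± 0.79 in bulk MEF (SD, n = 4 each). Every fast MEF library was at 0.79 or more and every slow MEF library at 0.33 or less. Per kilobase of the longest coding transcript, Uhrf1 reached 141 ± 34.9 CPM in fast MEF, where Dnmt1 reached 38.1 ± 10.5, and 7.68 ± 3.88 CPM in slow MEF, where Dnmt1 reached 5.88 ± 1.25. Because the pair acts at replication forks, it was set beside 40 genes of S phase and DNA replication. In fast over slow MEF, 23 of the 40 were higher, none lower, where 14.4% of all genes were higher and 17.3% lower. Their median log2 fold change was 1.79, where the median of all genes was -0.11. Only 1 of the 40, Mcm10, exceeded Uhrf1 (4.91 ± 0.97, and 6.33 without slow MEF replicate 2), and 9 exceeded Dnmt1. Mcm5, a subunit of the replicative helicase, had 289 CPM in fast MEF, against 19 CPM in slow MEF (3.81 ± 0.36, edgeR adjusted p = 6.84e-05). Pcna, the clamp that carries DNMT1 at the fork, changed by 2.48 ± 0.25 (edgeR adjusted p = 0.000103), close to Dnmt1. In slow over bulk MEF 0 of 38 tested genes of the list were higher and 2 lower, with a median of -0.25. With 5.51% of all genes higher and 4.99% lower in slow over bulk MEF, this count is near the background and is no result about the list. Cdt1, which licenses origins, gave -3.40 ± 0.73 there (edgeR adjusted p = 0.0143). In iPS over bulk MEF 36 of 40 were higher, where 24.1% of all genes were higher. The median of the list was 2.63, and 16 exceeded Dnmt1 and 9 exceeded Uhrf1.

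**Figure D2:**
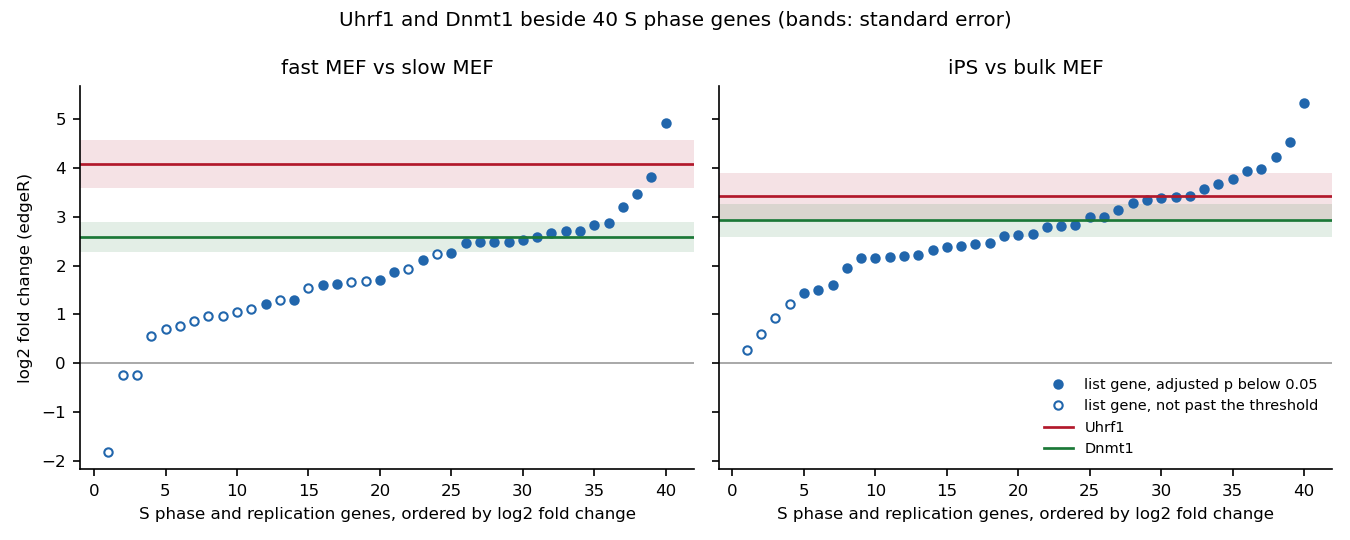
Log2 fold changes of 40 S phase and replication genes (points, ordered, filled where adjusted p is below 0.05) with Uhrf1 and Dnmt1 as lines with SE bands. In fast over slow MEF the Uhrf1 line at 4.08 passes above all but 1 list gene, and in iPS over bulk MEF both lines lie inside the list.

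The 3 de novo genes each had every iPS library above every other library. Dnmt3a, a de novo methyltransferase also found in somatic cells, had 270, 559, 550 and 382 CPM in iPS, against 113, 131, 151 and 124 CPM in fast MEF and 35.4, 57.5, 73.7 and 91.9 CPM in bulk MEF. iPS lay above every other library, and the log2 fold change was 1.75 ± 0.27 over fast MEF and 2.78 ± 0.36 over bulk MEF (edgeR adjusted p = 0.000804 and 0.000211). Slow MEF had 96, 112, 70 and 40.4 CPM, all below the lowest fast MEF library at 113 CPM, and the gates differed by 0.59 ± 0.33 (edgeR adjusted p = 0.203). Fast over bulk MEF gave 0.97 ± 0.32 (edgeR adjusted p = 0.0362). Leaving out single libraries kept that value between 0.76 and 1.16 but ended the call without any 1 of the 4 fast MEF libraries or bulk MEF replicate 1 or 2. Below iPS the groups with neighbouring means overlapped, with 138 ± 77.7 CPM in fast GMP, 130 ± 16 in fast MEF, 123 ± 37.7 in slow GMP, 79.6 ± 31.3 in slow MEF and 64.6 ± 24 in bulk MEF (SD).

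Dnmt3b, the de novo methyltransferase of early embryonic cells, spanned the widest range of the pair. It had 141, 166, 199 and 218 CPM in iPS, against 6.81, 8.37, 5.55 and 12.7 CPM in fast MEF. Slow MEF held 1.93, 0.653, 6.82 and 0.98 CPM, and bulk MEF 0.196, 0.187, 1.62 and 0 CPM. Every fast MEF library was above every bulk MEF library (3.94 ± 1.05, edgeR adjusted p = 0.0142), while 1 slow MEF library reached into the fast range. Fast over slow MEF gave 1.56 ± 0.79 (edgeR adjusted p = 0.159), and 2.68 (edgeR adjusted p = 0.024) without slow MEF replicate 3. iPS over fast MEF gave 4.43 ± 0.33 (edgeR adjusted p = 1.29e-05). Of the 20 Dnmt3b counts in bulk MEF, 16 were in replicate 3. Without that library the log2 fold change over bulk MEF was 10.31 in iPS, where it was 8.44 ± 0.91 with all libraries, and 5.82 in fast MEF. The group means in order were 181 ± 34.2 CPM in iPS, 31.4 ± 42.6 in slow GMP, 24.9 ± 25 in fast GMP, 8.36 ± 3.12 in fast MEF, 2.59 ± 2.87 in slow MEF and 0.501 ± 0.752 in bulk MEF (SD), and below iPS each group overlapped the next. Dnmt3b has a close mouse copy, Dnmt3c, which was not analysed here, and reads shared by the pair cannot be told apart.

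Dnmt3l, the partner without activity, was close to absent from fast MEF. It had 275, 182, 337 and 219 CPM in iPS, against 0, 0, 0.174 and 0 CPM in fast MEF. The fast MEF value is 1 count in the 4 libraries together, where there were 74 counts in slow MEF and 28 in bulk MEF. Slow MEF libraries held 3.32, 2.53, 1.14 and 0.294 CPM, and bulk MEF libraries 0.294, 0.374, 2.13 and 0 CPM. The count ratio of iPS to fast MEF, scaled to library size, was 10785 (95% exact binomial interval 1935 to 426002), and that of slow to fast MEF was 75.7 (13.2 to 3030). These intervals cover counting error only. Fast and slow MEF did not overlap, but the gene was below the count filter in that comparison. Without the filter its fitted log2 fold change of fast over slow MEF was -5.46 (edgeR adjusted p = 0.0581), and with all 24 libraries in 1 fit it was -5.42 (edgeR adjusted p = 0.0291). Dnmt3l met the filter, through slow MEF, when any 1 of the 4 fast MEF libraries or slow MEF replicate 4 was left out. It passed as lower each time, at -5.16 to -7.33 (edgeR adjusted p = 0.0113 to 0.0436). iPS over bulk MEF gave 8.45 ± 0.91 (edgeR adjusted p = 7.36e-05), and 10.04 without bulk MEF replicate 3, which held 21 of the 28 bulk counts. Below iPS the group means were 14 ± 15.3 CPM in slow GMP, 7.64 ± 9.18 in fast GMP, 1.82 ± 1.36 in slow MEF and 0.699 ± 0.966 in bulk MEF (SD), and each of these groups overlapped the next. Dnmt3l overlaps Aire, on the other strand, by 67 exon bases, and Aire had 21.7 ± 5.55 CPM in iPS and no count in any MEF library. The overlaps of Dnmt3a with Dnmt3aos and of Tet2 with Gm42567 are 133 and 43 bases. Whether counting used the strand is not given in the sources used here, so reads there cannot be told apart.

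Per kilobase, the makeup of the DNMT3 family differed between the populations. Dnmt3l was 61% ± 8.81 of the summed family CPM per kilobase in iPS, where Dnmt3a was 20.3% ± 6.74 and Dnmt3b 18.8% ± 3.97 (SD, n = 4). In fast MEF Dnmt3a was 87.2% ± 4.4, Dnmt3b 12.7% ± 4.6 and Dnmt3l 0.14% ± 0.28. In slow MEF Dnmt3a was 84.4% ± 6.69, Dnmt3b 6.63% ± 6.93 and Dnmt3l 8.93% ± 4.95, and in bulk MEF they were 93.4% ± 7.24, 1.49% ± 1.8 and 5.07% ± 5.44. The order of Dnmt3a and Dnmt3b in iPS rests on the transcript length used: with the union of exons, Dnmt3b was 24.4% and Dnmt3a 18.2%. The lead of Dnmt3l in iPS rests on dividing by length. By mean CPM alone Dnmt3a led with 440, where Dnmt3l had 253 and Dnmt3b 181. The family as a whole summed to 226 ± 41.4 CPM per kilobase in iPS, 15.4 ± 1.54 in fast MEF, 9.81 ± 3.84 in slow MEF and 7.17 ± 2.66 in bulk MEF. Inside a library, the log2 ratio of Dnmt3b to Dnmt3a counts was -1.24 ± 0.44 in iPS, -4.01 ± 0.60 in fast MEF, -5.39 ± 1.63 in slow MEF and -7.81 ± 2.17 in bulk MEF. Every iPS library lay above every MEF library in it.

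**Figure D3:**
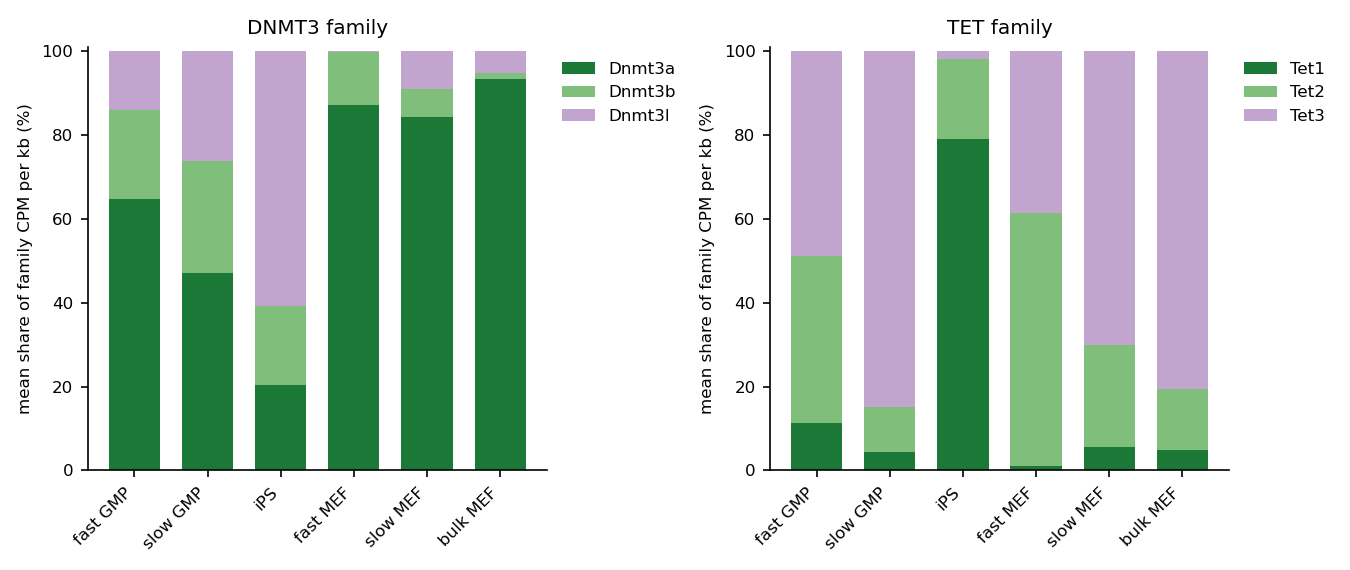
Mean share of each gene in the CPM per kilobase of its family, by group. In the TET family Tet1 makes up 79.1% in iPS and 1.09% in fast MEF, where Tet2 leads with 60.2%, and in the DNMT3 family Dnmt3l makes up 61% in iPS.

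The 3 Tet genes each had their own pattern. Tet1, the TET enzyme of pluripotent cells, was low in every MEF population and high in iPS. It had 432, 342, 425 and 474 CPM in iPS, against 2.36, 3.52, 2.26 and 2.16 CPM in fast MEF. Slow MEF held 3.42, 3.43, 4.93 and 3.04 CPM, and bulk MEF 4.31, 1.03, 2.74 and 0 CPM. The 3 MEF groups overlapped, with fast over slow -0.64 ± 0.58 and fast over bulk 0.28 ± 1.0 (edgeR adjusted p = 0.436 and 0.856). The value against bulk MEF lay between -0.14 and 0.94 when single libraries were left out. iPS over fast MEF gave 7.33 ± 0.28 (edgeR adjusted p = 6.45e-07), rank 2 by p of 11882 genes. iPS over bulk MEF gave 7.66 ± 0.90 (edgeR adjusted p = 0.000119), and 8.32 without bulk MEF replicate 1. Below iPS, at 418 ± 55.3 CPM, every group overlapped the next in the order of means: 14.9 ± 15.5 CPM in fast GMP, 6.38 ± 2.36 in slow GMP, 3.7 ± 0.835 in slow MEF, 2.57 ± 0.638 in fast MEF and 2.02 ± 1.9 in bulk MEF (SD).

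Tet2, a TET enzyme also well known in blood cells, was the TET gene that was higher in the fast than in the slow gate of induced fibroblasts. It had 70.6, 136, 73.1 and 89.5 CPM in fast MEF, against 8.13, 5.39, 10.5 and 22.3 CPM in slow MEF and 3.53, 2.15, 5.37 and 3.86 CPM in bulk MEF. None of the 3 groups overlapped. Fast over slow MEF gave 2.88 ± 0.47 and fast over bulk MEF 4.57 ± 0.42 (edgeR adjusted p = 0.00134 and 2.49e-05). Slow over bulk MEF gave 1.68 ± 0.61, which did not pass with edgeR (adjusted p = 0.105) and did with DESeq2 (adjusted p = 0.0323). iPS held 76.5, 74.5, 45.4 and 58.7 CPM, overlapped fast MEF (iPS over fast MEF -0.53 ± 0.29, edgeR adjusted p = 0.167) and lay above bulk MEF (4.09 ± 0.42, edgeR adjusted p = 5.41e-05). The means ran from 92.3 ± 30.2 CPM in fast MEF through 63.8 ± 14.6 in iPS, 41.1 ± 32.7 in fast GMP, 15.3 ± 12.2 in slow GMP and 11.6 ± 7.47 in slow MEF to 3.73 ± 1.32 in bulk MEF (SD), and only the last neighbours, slow and bulk MEF, did not overlap.

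Tet3, the TET enzyme of the egg and of many somatic cells, was lowest in iPS. It had 3.35, 14.9, 4.63 and 5.61 CPM in iPS, against 50.7, 77.1, 78.5 and 67.7 CPM in fast MEF. These groups did not overlap, and iPS over fast MEF gave -3.27 ± 0.50 (edgeR adjusted p = 0.000788). Without iPS replicate 2, the highest iPS library, it was -3.92. Slow MEF held 15.7, 30.2, 105 and 44.9 CPM around the fast MEF range (fast over slow 0.37 ± 0.51, edgeR adjusted p = 0.621, and 1.07 without slow MEF replicate 3). Bulk MEF held 25.6, 11, 39.9 and 27.1 CPM. Fast over bulk MEF gave 1.35 ± 0.41 (edgeR adjusted p = 0.0248), a call that was lost without fast MEF replicate 2 or bulk MEF replicate 1 or 4. iPS over bulk MEF gave -1.86 ± 0.59 (edgeR adjusted p = 0.0256), with 1 iPS library inside the bulk range. That call was lost without iPS replicate 1, 3 or 4 or bulk MEF replicate 3, and the value was -2.50 without iPS replicate 2. The means ran from 137 ± 98.1 CPM in slow GMP through 68.5 ± 12.8 in fast MEF, 51.7 ± 16.3 in fast GMP, 49 ± 39.4 in slow MEF and 25.9 ± 11.8 in bulk MEF to 7.13 ± 5.28 in iPS (SD), and each group overlapped the next.

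Per kilobase, Tet1 was 79.1% ± 5.87 of TET CPM in iPS, with Tet2 at 19% ± 4.76 and Tet3 at 1.85% ± 1.52 (SD, n = 4). In fast MEF Tet2 was 60.2% ± 6.18, Tet3 38.7% ± 6.23 and Tet1 1.09% ± 0.162. In slow MEF Tet3 was 70.2% ± 14.2 and Tet2 24.3% ± 12.9, and in bulk MEF Tet3 was 80.6% ± 4.2 and Tet2 14.5% ± 2.29. Tet1 led in iPS, Tet2 in fast MEF and Tet3 in slow and bulk MEF. The family summed to 36.7 ± 3.1 CPM per kilobase in iPS, 16.5 ± 4.04 in fast MEF, 6.02 ± 3.86 in slow MEF and 2.92 ± 1.28 in bulk MEF. The log2 ratio of Tet1 to Tet2 counts inside a library was 2.73 ± 0.47 in iPS and -5.11 ± 0.23 in fast MEF, with slow MEF at -1.45 ± 0.97 and bulk MEF at -1.95 ± 2.84.

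**Figure D4:**
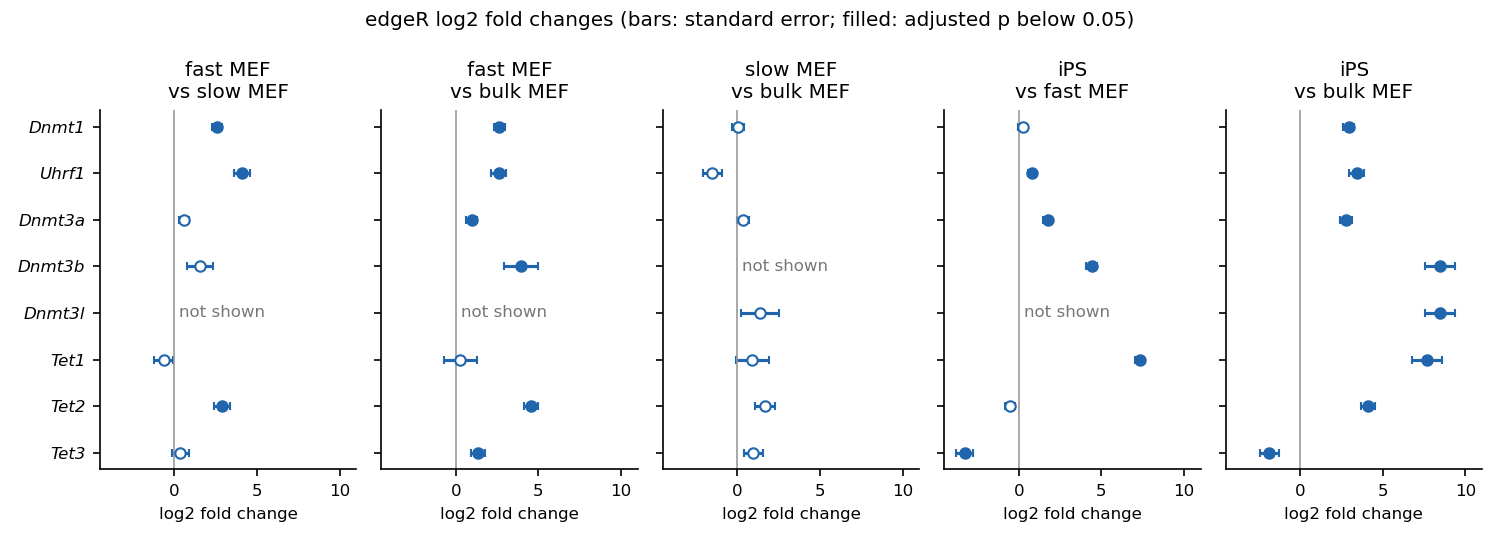
Log2 fold changes of the 8 genes in 5 comparisons, first-named group over second, with SE (bars) and filled points where the edgeR adjusted p is below 0.05. Points marked not shown were below the count filter, or rest on 1 count in fast MEF. Dnmt1 and Tet2 lie near 0 in iPS over fast MEF, while Tet1 lies at 7.33 there and near 0 in fast over bulk MEF.

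In blood progenitors none of the 8 members passed between the dye gates, in fast over slow GMP, where edgeR called 0 of 10057 genes (0%), 742 had an unadjusted p below 0.05 and DESeq2 called 97. None of the 8 had an unadjusted p below 0.05 or passed with DESeq2 or limma voom. All 8 overlapped between the gates, but the share of all genes that did is not given here, so this is no result about the members. Uhrf1 had 305, 110, 614, 710 and 630 CPM in fast GMP, against 104, 511 and 135 CPM in slow GMP (0.96 ± 0.86, edgeR adjusted p = 0.813, and 2.01 without slow GMP replicate 2). Dnmt1 had 153, 108, 673, 155 and 94.6 CPM in fast GMP, against 670, 103 and 164 CPM in slow GMP (-0.45 ± 0.91, edgeR adjusted p = 0.92). Each gate held 1 library near 670 CPM, and the Dnmt1 value was -1.30 without fast GMP replicate 3 and 0.83 without slow GMP replicate 1. Tet3 had 23.8 to 65.8 CPM in fast GMP, against 63.1 to 248 CPM in slow GMP (-1.39 ± 0.80, edgeR adjusted p = 0.695, and -0.65 without slow GMP replicate 2). Tet2 had 17.2 to 97.8 CPM in fast GMP, against 6.86 to 29.4 CPM in slow GMP (1.43 ± 1.03, edgeR adjusted p = 0.749, 2.30 without slow GMP replicate 2 and 0.83 without fast GMP replicate 4). Dnmt3b had 63.3, 36.1, 6.43, 2.93 and 15.8 CPM in fast GMP, against 7.22, 80.7 and 6.4 CPM in slow GMP (-0.27 ± 1.24, edgeR adjusted p = 0.969, 1.87 without slow GMP replicate 2 and -1.03 without fast GMP replicate 1). Dnmt3a, Dnmt3l and Tet1 gave 0.14 ± 0.83, -0.87 ± 1.47 and 1.21 ± 1.32 (edgeR adjusted p = 0.976, 0.906 and 0.837). Dnmt3l was 0.40 without slow GMP replicate 3 and -1.80 without fast GMP replicate 1.

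Whether the gate difference itself differed between MEF and GMP was tested as an interaction. None of the 8 passed with edgeR, where 1.4% of 13814 genes passed and 2779 had an unadjusted p below 0.05. Uhrf1 gave 3.15 ± 0.94 and Dnmt1 3.02 ± 1.0 (edgeR adjusted p = 0.0824 and 0.102). Of the 8, 3 had an unadjusted p below 0.05, DESeq2 called 2, Dnmt1 and Uhrf1 (adjusted p = 0.0225 and 0.0195), and limma voom called Uhrf1 alone. Uhrf1 was 2.08 without slow GMP replicate 2. Dnmt1 was 1.84 without slow GMP replicate 1, and 3.99 without fast GMP replicate 3, where it passed with edgeR (adjusted p = 0.0249).

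Fast GMP were also set against the other populations labelled as fast cycling. Fast GMP against fast MEF called none of 7 tested members, where 13.5% of 10639 genes passed and 3071 had an unadjusted p below 0.05. Of the 7, 1 had an unadjusted p below 0.05, Tet1 (2.77 ± 1.08, edgeR adjusted p = 0.113), which DESeq2 called and limma voom did not, and which edgeR called without fast GMP replicate 5 (adjusted p = 0.0437). Tet1 had 29.6, 7.23, 33.5, 3.34 and 0.717 CPM in fast GMP, so its libraries lay on both sides of the 2.16 to 3.52 CPM of fast MEF. Uhrf1 gave 0.11 ± 0.54 and Dnmt1 0.28 ± 0.64. With SE of this size, the p-values do not show that the levels were alike. Dnmt3l had 117 counts in fast GMP, against 1 in fast MEF (count ratio 371, 95% exact binomial interval 65.3 to 14777), and was below the filter. Its 117 counts were spread unevenly, with 71 in fast GMP replicate 1 and 37 in replicate 2.

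Fast GMP against iPS called 3 of 8 members, 1 higher and 2 lower, against a background of 14.9% of 10549 genes, with 8.41% higher and 6.46% lower. The 2 lower members, Dnmt3l and Tet1, met the count filter only through iPS, so their calls are not evidence about the members as a set. Dnmt3l had 20.6, 14.1, 2.37, 0.418 and 0.717 CPM in fast GMP, all below iPS (-4.77 ± 1.05, edgeR adjusted p = 0.0108, and -5.56 without fast GMP replicate 1). Tet1 was also below iPS in every library (-4.58 ± 0.93, edgeR adjusted p = 0.0069, and -4.99 without that replicate). Tet3 had 23.8, 65.8, 56.5, 53.1 and 59.5 CPM in fast GMP, all above iPS (3.05 ± 0.70, edgeR adjusted p = 0.0126). That call was lost without iPS replicate 1, 3 or 4. Dnmt3b and Dnmt3a did not overlap iPS either, at -2.60 ± 0.83 and -1.48 ± 0.58, but did not pass with edgeR (adjusted p = 0.0556 and 0.108). Dnmt3b passed with edgeR without the count filter (-3.11, adjusted p = 0.021) and without fast GMP replicate 1 (-3.31, adjusted p = 0.0139). It also passed with DESeq2 (adjusted p = 0.0127), with limma voom (adjusted p = 0.00412) and with all 24 libraries in 1 edgeR fit (adjusted p = 0.032). Dnmt3a passed with limma voom (adjusted p = 0.0361) and with all 24 libraries in 1 edgeR fit (adjusted p = 0.0146). Without fast GMP replicate 1, 4 members passed, 1 higher and 3 lower. By group mean, the TET family per kilobase was led in GMP by Tet3, with 48.9% ± 19.6 in fast GMP (n = 5) and 84.8% ± 3.31 in slow GMP (n = 3). Tet2 led in fast GMP replicates 1 and 4. Dnmt3a had the highest mean share of the DNMT3 family, with 64.8% ± 34 in fast GMP and 47.1% ± 16.6 in slow GMP (SD), but the leading gene changed between libraries. Dnmt3b led in fast GMP replicate 1 and slow GMP replicate 2, and Dnmt3l in slow GMP replicate 3.

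The proteins that work with these enzymes were read from lists of partners. In fast over slow MEF, 6 of 22 tested partners of DNMT and UHRF1 were higher and none lower, where 14.4% of all genes were higher and 17.3% lower. Their median log2 fold change was 0.84, where that of all genes was -0.11. Hells, the remodeller that opens chromatin for DNMT1, had 21 CPM in fast MEF, against 3.94 CPM in slow MEF (2.27 ± 0.48, edgeR adjusted p = 0.00509). Its cofactor Cdca7 gave 2.59 ± 0.65 (edgeR adjusted p = 0.0122, and 3.26 without slow MEF replicate 2), and Smchd1, a chromosome-structure protein, 1.42 ± 0.36 (edgeR adjusted p = 0.013). Usp7, which deubiquitinates and stabilises DNMT1 and UHRF1, gave 1.24 ± 0.48 and did not pass (edgeR adjusted p = 0.0747), and was 0.50 without fast MEF replicate 3. In iPS over bulk MEF 15 of 24 were higher and none lower, where 24.1% of all genes were higher and 23.3% lower. Hells gave 3.88 ± 0.51 there and Usp7 2.32 ± 0.29 (edgeR adjusted p = 0.000234 and 0.00018). Prdm14, which represses Dnmt3 genes in pluripotent cells, had 47.8 CPM in iPS and 1 count in bulk MEF (count ratio 2076, 95% exact binomial interval 372 to 82021). Dppa3, which keeps UHRF1 off chromatin in oocytes and early embryos, had 6.82 ± 3.24 CPM in iPS (SD, n = 4) and no count in bulk MEF, at least 89.3-fold higher when 3 counts over the group are taken as the floor. Prdm14 and Dppa3 met the count filter only through iPS, so the count of 15 is not evidence about the list. In iPS over fast MEF 11 of 24 were higher and 2 lower, where 18.8% of all genes were higher and 19.7% lower. Dppa3, with 2 counts in fast MEF, met the count filter only through iPS, so this count is not evidence about the list. The higher genes were led by Dppa3, and by Trim28 (2.74 ± 0.21) and Zfp57 (2.68 ± 0.37), which together keep imprints methylated (edgeR adjusted p = 1.55e-05 and 0.000482). Kdm1b, a histone demethylase needed for imprints in oocytes, was lower (-1.98 ± 0.51, edgeR adjusted p = 0.0117). In fast over bulk MEF 6 of 22 were higher and 1, Dmap1, lower (-2.06 ± 0.42, edgeR adjusted p = 0.0037), where 16.5% of all genes were higher and 18.4% lower. In slow over bulk MEF none of 22 passed, where 10.5% of all genes passed. In fast GMP against iPS 5 of 24 were lower and none higher, where 6.46% of all genes were lower and 8.41% higher. Dppa3, Prdm14 and Zfp57 were among the 5 and met the count filter only through iPS, so this count is not evidence about the list. Zfp57 gave -6.64 ± 1.20 in fast GMP against iPS (edgeR adjusted p = 0.00388, and -8.84 without fast GMP replicate 1).

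Among 11 genes listed as methyl-CpG readers or members of their families, 4 were lower and none higher in fast over slow MEF, with a median log2 fold change of -0.90. The shares over all genes were 17.3% lower and 14.4% higher. Binding to methylated CpG is not implied for every gene of the list. Zbtb4, a zinc finger repressor that binds methylated CpG, had 5.78 CPM in fast MEF, against 57.4 CPM in slow MEF (-3.43 ± 0.35, edgeR adjusted p = 0.000105). Mbd5, of the methyl-CpG-binding domain family, gave -1.82 ± 0.50 (edgeR adjusted p = 0.0181). Uhrf2, the paralog of Uhrf1, gave -0.96 ± 0.43 and did not pass (edgeR adjusted p = 0.116). Mbd2 and Mbd4 did not pass either, at -0.90 ± 0.49 and 0.31 ± 0.73, and Mbd4 was 1.31 without slow MEF replicate 4. In iPS over bulk MEF 2 of the 11 were higher and 4 lower. With 24.1% of all genes higher and 23.3% lower, this count is near the background and is no result about the list. Zbtb4 gave -5.67 ± 1.20 (edgeR adjusted p = 0.00326), -7.89 without iPS replicate 1 and -4.70 without bulk MEF replicate 4. Mbd5 gave -3.02 ± 0.67 and Mbd2 -1.86 ± 0.54 (edgeR adjusted p = 0.00435 and 0.0171), and Mbd5 was -2.43 without bulk MEF replicate 1 and Mbd2 -2.46 without iPS replicate 2. Mbd4, a glycosylase that removes deaminated methylcytosine, was higher, with 7.01 CPM in iPS and 0.753 CPM in bulk MEF (3.20 ± 0.58, edgeR adjusted p = 0.00142). In iPS over fast MEF 1 of 11 was higher and 1 lower, where 18.8% of all genes were higher and 19.7% lower.

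Of the genes of base excision and active demethylation, 4 of 15 tested were higher and 3 lower in fast over slow MEF, with a median of 0.50, where 14.4% of all genes were higher and 17.3% lower. Ung, the uracil glycosylase, had 49.3 CPM in fast MEF, against 2.16 CPM in slow MEF (4.40 ± 0.56, edgeR adjusted p = 0.000333). Parp1, a sensor of strand breaks, gave 3.08 ± 0.32 (edgeR adjusted p = 0.000112) and the ligase Lig3 2.29 ± 0.31 (edgeR adjusted p = 0.000479). The stress-induced Gadd45 genes, proposed adaptors of demethylation, included 2 that were lower. Gadd45g gave -2.85 ± 0.46 and Gadd45a -2.35 ± 0.61 (edgeR adjusted p = 0.00122 and 0.0143), while Gadd45b gave -1.95 ± 0.70 and did not pass (edgeR adjusted p = 0.0569). It passed without fast MEF replicate 3 (-2.71, edgeR adjusted p = 0.0104) and without slow MEF replicate 4. Gadd45a was -3.32 without fast MEF replicate 3. Tdg, which excises the oxidation products of TET enzymes, averaged 1.31 ± 0.673 CPM in fast MEF and had no count in slow MEF, and was below the filter. It averaged 0.37 CPM in iPS and 0.211 CPM in bulk MEF, so these are all values near 0. In iPS over bulk MEF 8 of 16 were higher and 2 lower, where 24.1% of all genes were higher and 23.3% lower. Parp1 gave 3.81 ± 0.24 there and Gadd45g -3.61 ± 0.31 (edgeR adjusted p = 5.26e-06 and 2.02e-05). Apobec2, a member of the cytidine deaminase family, had 18.5 CPM in iPS and 2 counts in bulk MEF (count ratio 318, 95% exact binomial interval 87.8 to 2633). It met the count filter only through iPS, so the count of 8 is not evidence about the list. Gadd45g was also lower in both induced groups against bulk MEF, at -4.47 ± 0.41 in fast MEF and -1.65 ± 0.29 in slow MEF (edgeR adjusted p = 2.62e-05 and 0.00541). In iPS over fast MEF, Gadd45a (2.62 ± 0.67) and Gadd45b (2.77 ± 0.66) were higher (edgeR adjusted p = 0.0117 and 0.00804), and 3.65 and 3.58 without fast MEF replicate 3.

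Among TET partners and CXXC proteins, 2 of 9 were higher and 1 lower in fast over slow MEF, with a median of 0.48. Over all genes 14.4% were higher and 17.3% lower, so this count is near the background and is no result about the list. Cxxc5, which binds CpG through a CXXC domain, had 2.25 CPM in fast MEF, against 60.7 CPM in slow MEF (-4.86 ± 0.66, edgeR adjusted p = 0.000471), and 99.3 CPM in iPS (iPS over fast MEF 5.42 ± 0.56, edgeR adjusted p = 9.04e-05). Hcfc1, a cofactor of the TET partner OGT, was higher in fast MEF (1.63 ± 0.22, edgeR adjusted p = 0.000453), as was Vprbp, a ubiquitin ligase subunit that acts on TET proteins (1.49 ± 0.36, edgeR adjusted p = 0.0104). Ogt itself did not differ by more than its SE between the gates (0.06 ± 0.34) and was higher in iPS over bulk MEF (2.06 ± 0.42, edgeR adjusted p = 0.00275), as were 4 others of 8 tested. The share of all genes higher in iPS over bulk MEF was 24.1%.

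Of 20 metabolic genes that supply the methyl donor and 2-oxoglutarate, the cosubstrate of TET enzymes, 6 were higher in fast over slow MEF and none lower, with a median of 0.76. The shares over all genes were 14.4% higher and 17.3% lower. Mtr, methionine synthase, had 105 CPM in fast MEF, against 9.81 CPM in slow MEF (3.31 ± 0.45, edgeR adjusted p = 0.000467), and 14.6 CPM in iPS (iPS over fast MEF -2.86 ± 0.32, edgeR adjusted p = 0.000129). Mthfd1 and Shmt1 of the folate cycle gave 2.76 ± 0.41 and 2.38 ± 0.58 (edgeR adjusted p = 0.000777 and 0.0106). Ahcy, which clears the inhibitor S-adenosylhomocysteine, did not pass there (0.26 ± 0.29, edgeR adjusted p = 0.534) but was higher in iPS over fast MEF (1.97 ± 0.27) and over bulk MEF (2.14 ± 0.20, edgeR adjusted p = 0.000427 and 2.96e-05). Tdh, which feeds threonine into the methyl donor cycle of mouse pluripotent cells, had 350 CPM in iPS, against 12.9 CPM in fast MEF and 0.683 CPM in bulk MEF (8.97 ± 0.86 over bulk, edgeR adjusted p = 3.72e-05, and 9.99 without bulk MEF replicate 3). Gldc of the glycine cleavage system gave 7.91 ± 1.14 over bulk MEF (edgeR adjusted p = 0.000397) and 12.79 without that library. Idh1 did not pass between the gates (-0.76 ± 0.45, edgeR adjusted p = 0.224) or in iPS over bulk MEF (0.09 ± 0.43, edgeR adjusted p = 0.88). Idh2 was higher in fast over slow MEF at 0.82 ± 0.28 (edgeR adjusted p = 0.0476), a call that 6 of the 8 single-library omissions ended, and in iPS over bulk MEF at 1.19 ± 0.28 (edgeR adjusted p = 0.00583). In slow over bulk MEF 2 of 18 were lower and none higher, where 4.99% of all genes were lower and 5.51% higher. Shmt2 gave -1.77 ± 0.33 there (edgeR adjusted p = 0.00755). In fast GMP 4 of 20 were lower than in iPS, including Ahcy (-2.27 ± 0.48, edgeR adjusted p = 0.00833). Of all genes, 6.46% were lower in that comparison. Gldc and Tdh were among the 4 and met the count filter only through iPS, so this count is not evidence about the list.

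A list of 18 germline genes, known to be silenced by promoter methylation in somatic mouse cells, summed to 87.7 to 148 CPM in iPS, against 1.09 to 12.7 CPM in fast MEF, 3.18 to 16.7 CPM in slow MEF and 0.281 to 1.42 CPM in bulk MEF. The iPS libraries lay above all MEF libraries, and the highest fast and slow MEF sums lay above the highest bulk MEF sum. In iPS over bulk MEF 8 genes could be tested, and all 8 were higher. These passed the filter through iPS, so their count is not evidence about the list. Tex19.1 and Tuba3a each had 38.9 CPM in iPS, against 0.15 and 0.104 CPM in bulk MEF (7.90 ± 0.90 and 8.42 ± 0.93, edgeR adjusted p = 9.71e-05 and 8.13e-05), and 9.80 and 9.77 without bulk MEF replicate 3. Rpl10l had 6.33 CPM in iPS and no count in bulk MEF, at least 94.7-fold higher against the same floor. GMP sums were 2.87 to 73.7 CPM in fast GMP, and 19.9 to 116 CPM in slow GMP.

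The genes most like each member were named by Pearson correlation of log2 CPM over 24 libraries among 15813 genes. The libraries share groups and depth, so the values are descriptions of these 6 populations. Uhrf1 was most like Slc25a13 (0.905), Ifrd2 and Mcm5 (0.885), and Dnmt1 most like Top2a (0.886) and Nup210 (0.872). Tet2 was most like Cep55 (0.883), Lsr and Mki67 (0.852), of which Cep55 and Mki67 are textbook proliferation genes. Tet1 was most like Dppa2 (0.939), Gdf3 and Pla2g1b, and Dnmt3l most like BC021614, BC033916 and Dppa2 (0.895). Dnmt3b was most like Fbxo5 (0.895), Hirip3 and 5730590G19Rik, Dnmt3a like Serbp1, Naa10 and Hsp90aa1 (0.804), and Tet3 like Slk (0.816), Celf2 and Taok3. Among the members, Tet1 and Dnmt3l were closest (0.88), Tet1 and Dnmt3b next (0.80), and Tet3 was negative against both Dnmt3l (-0.63) and Tet1 (-0.60).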

How the data were processed

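RNA of 24 libraries was measured. Per the labels' protocols, cytoplasmic RNA of 1000 sorted cells was converted to cDNA with an oligo-dT primer and sequenced. Per the submitters' processing notes, the authors used CASAVA 1.8.2, TopHat2 2.0.4, HTSeq and build mm9, and the gene annotation and strand setting are not given there. The deposited table holds raw counts, whole numbers with no normalization by the authors, for 23283 gene symbols. Intervals cover counting error only, since amplified reads do not each stand for a molecule.

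Groups were taken from the labels. Counts were compared with edgeR 4.0.16 (robust quasi-likelihood test, TMM, filterByExpr, two-sided, Benjamini-Hochberg over all genes tested) in R 4.3.3, fitting only the groups compared. CPM used TMM factors over 24 libraries. Lengths were of the longest coding transcript in GENCODE M21. Alternatives were other scalings and filters, DESeq2 1.42.0, limma 3.58.1 voom with quality weights, a replicate block, all 24 libraries in 1 fit, no Rn45s and Lars2, and each library left out. The fits were tested on simulated data. Of 37 pairs of libraries within a group none were identical.

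The members, lists and tests were chosen with earlier results of these data known. The text names the 8 members, 16 partner genes, and from each list up to 3 genes that passed in the leading direction and 1 in the other, at 5 CPM or more in the higher group, and the 3 genes most correlated with each member. A few genes that this choice would name are not reported here.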

Additional observations from a re-analysis of the deposited data

Results flagged for a closer look

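Of 40 sets of values of 1 member in 1 group of 4 or 5 libraries, 6 held a library far from the others. The sets include values near 0, and the share over all genes is not given here, so this number is not set against chance. Dnmt1 had 673 CPM in fast GMP replicate 3, and 94.6 to 155 CPM in the other fast GMP libraries. Tet2 had 97.8 CPM in fast GMP replicate 4, and 17.2 to 39.6 CPM in the others. Uhrf1 had 690 CPM in fast MEF replicate 3, and 421 to 465 CPM in the others. Without that library Uhrf1 in fast over slow MEF gave a log2 fold change of 3.91, where it was 4.08 with it. Dnmt3l had 0.174 CPM in fast MEF replicate 3, which is 1 count, and 0 in the others. Tet1 had 3.52 CPM in fast MEF replicate 2, and 2.16 to 2.36 CPM in the others. Dnmt3b had 1.62 CPM in bulk MEF replicate 3, which is 16 counts, and 0 to 0.196 CPM in the others. That library also held 21 of the 28 Dnmt3l counts of bulk MEF. The pluripotent marker sum was 24.5 CPM in bulk MEF replicate 1, 2.06 in replicate 2, 21.7 in replicate 3 and 1.13 in replicate 4. The part of such RNA in the Dnmt3b and Dnmt3l counts was not tested.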

How the results depend on the processing

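Of the members' log2 fold changes recomputed with another scaling, filter, tool or fit, 573 kept their direction and side of the threshold, 12 turned direction, 16 passed newly and 5 no longer passed. Of the 5, Dnmt3a in fast over bulk MEF was lost without a filter (0.94, adjusted p = 0.0538) and with all 24 libraries in 1 fit (1.01, adjusted p = 0.203). That fit also lost Tet3 in fast over bulk MEF (1.40, adjusted p = 0.153) and Uhrf1 in iPS over fast MEF (0.81, adjusted p = 0.402), and the replicate block lost Tet3 in iPS over bulk MEF. With single libraries left out these numbers were 578, 22, 4 and 19, and of 26 calls 5 were lost without some library. The cause of the changes below was not tested.

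With all 24 libraries in 1 fit, genes called numbered 1246 in fast over slow MEF, 3170 in iPS over bulk MEF, 1513 in fast over bulk MEF, 56 in slow over bulk MEF, 1675 in iPS over fast MEF, 385 in fast over slow GMP, 3135 in fast GMP over fast MEF, 3603 in fast GMP over iPS and 1069 in the interaction. DESeq2 called 1976 in slow over bulk MEF, 97 in fast over slow GMP, 2663 in fast GMP over fast MEF, 2693 in fast GMP over iPS and 1563 in the interaction, and limma voom 3009 and 2898 in the 2 fast GMP comparisons. Without single libraries they ranged from 759 to 998 in slow over bulk MEF, from 815 (without fast MEF replicate 2) to 2298 (without fast GMP replicate 1), from 938 to 2238 (without fast GMP replicate 1) and from 82 to 575 in the last 3 comparisons in that order.

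Members called were 2 with DESeq2 in slow over bulk MEF. In fast over slow MEF they were 3 to 4 without single libraries, the added member being Dnmt3l, as lower, or Dnmt3b, as higher. In fast GMP over fast MEF they were 1 without a filter or with DESeq2, 2 with all libraries, and 0 to 1 without single libraries. In fast GMP over iPS they were 5 with voom and with all libraries. In the interaction they were 2 with DESeq2 and with all libraries, 1 with voom and 0 to 1 without single libraries. Dnmt3b in fast over slow MEF passed with voom (2.11, adjusted p = 0.0374).

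Values near 0 turned direction. In slow over bulk MEF Dnmt1 was -0.02 without a filter and with all libraries, and -0.16 to 0.19 without single libraries. In fast GMP over iPS Dnmt1 was 0.08 with DESeq2 size factors, 0.10 with a stricter filter and 0.09 without Rn45s and Lars2, and -0.83 to 0.20 without single libraries. In fast GMP over fast MEF Uhrf1 was -0.27 with voom and -0.09 with all libraries, and ranged without single libraries from -0.05 to 0.38, Dnmt1 from -0.55 to 0.48 and Tet3 from -0.35 to 0.08. In fast over slow GMP Dnmt3l was 0.19 with voom, and single libraries moved Dnmt1 from -1.30 to 0.83, Dnmt3a from -0.12 to 0.37, Dnmt3b from -1.03 to 1.87 and Dnmt3l from -1.80 to 0.40. They moved Tet1 in fast over bulk MEF from -0.14 to 0.94 and Dnmt3b in the interaction from -0.19 to 3.09. Chosen after seeing the data, Ogt in fast over slow MEF ranged from -0.11 to 0.34, Idh1 in iPS over bulk MEF from -0.26 to 0.29, and Pcna in iPS over fast MEF from -0.14 to 0.02.

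Replicate numbers did not pair the libraries: over 31 pairs of same-numbered libraries the correlation of deviations ran from -0.09 to 0.07. With the replicate block, 92 genes were called in the interaction, Tet3 in iPS over bulk MEF was -2.05 (adjusted p = 0.054), Dnmt3a, Dnmt3b and Dnmt3l in fast over slow GMP were -0.08, 0.51 and 0.70, and Uhrf1 in fast GMP over fast MEF was -0.27. No other call of a member changed with the block.

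The median of all genes moved by -0.56 and -0.57 with voom, and by -0.51 and -0.52 with the block, in fast GMP over fast MEF and over iPS. The share of calls that were higher was 67.9% with all libraries, where it was 52.5%, in slow over bulk MEF, 40.4% with voom, where it was 56.6%, in fast GMP over iPS, and 55.8% with voom, where it was 43%, in the interaction. Low counts limit Dnmt3l, with 1 count over the 4 fast MEF libraries and 28 over the 4 bulk MEF libraries, and Dnmt3b, with 20 over the 4 bulk MEF libraries.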
